A study of Mus musculus with 15 samples.

Results

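The comparison of estradiol (E2, the main estrogen of the ovary) with vehicle (Veh) in mouse liver covered 6 of the 15 mice in the series, 3 given E2 and 3 given Veh, and all 2545 genes of the deposited expression table. The members were the E2 and Veh columns of that table, matched to mice by their names. All mice were female C57BL/6 from the Jackson Laboratory (the study's methods give C57BL/6J) with no genetic change named. They were put on a high-fat diet (45% of calories from fat, 0.2% cholesterol) at 8 weeks of age and ovariectomized at 10 weeks. Treatment lasted 6 weeks. Veh mice stood for the ovariectomized state on this diet with vehicle and no estrogen given, and no mouse with ovaries was in the table. Vehicle was a liquid mix of DMSO, ethanol and saline, and E2 was delivered by pellet. Whether Veh mice had a pellet or E2 mice the liquid is not stated. E2 and the form of its delivery therefore cannot be told apart in this comparison. The E2 dose is given both as 5 μg per kg per day and as a pellet of 0.72 mg released over 60 days, and the sources do not say how these relate. The other 9 mice received conjugated estrogens (CE), bazedoxifene (BZA, a selective estrogen receptor modulator) or both (CE+BZA), with 3 mice a group. Each value came from 1 mouse, and the mice are called here by group and by the number in their description (Veh 1, 4 and 7, and E2 3, 4 and 5). Values in a row follow that order.

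In the liver, estrogens act mainly through estrogen receptor alpha in hepatocytes, and loss of the ovaries together with a fatty diet favours storage of triglyceride in these cells. Many mouse liver genes also differ in level between females and males, largely through the sex-specific pattern of growth hormone release, which is read by the transcription factor STAT5B and by the repressors CUX2 and BCL6. In fatty liver, the nuclear receptor PPARG adds a set of lipid uptake and storage genes that are otherwise typical of fat cells, and sterol synthesis genes are controlled together by SREBP2.

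Each value in the table is a log2 DESeq-normalized read count set against the median of its gene in all 15 mice, so levels can be compared between mice for 1 gene and not between genes. All 2545 genes have a mean difference from Veh of over 1 (2-fold) in at least 1 of the 4 treatments. E2 itself differed from Veh by that much in 869 of them, and in the other 1676 only another treatment did. The table is thus a selection on the measure tested here, and the p-values below are not independent of it. In 1045 genes (41.1%), at least 2 mice shared the lowest value, a floor set before deposition, and where only the lower group was at the floor the true difference may be larger. The table gives no read totals, so the depth is unknown. Of 14 hepatocyte markers, 3 were in the table (Trf, Serpina3k and Ass1), with mean differences of E2 from Veh of 0.96, 1.09 and 0.92. Trf was −0.38, −0.33 and −1.91 and Ass1 −0.41, −0.42 and −2.37 in the Veh mice, so both differences rested largely on Veh 7. Values set against the median of each gene give no level, so the tissue label was not checked by them. BZA mouse 3 stood apart, with the highest value of the 15 mice in 12 of 12 pancreatic acinar genes of the table (7.74 for the amylase gene Amy2a5 and 7.02 for Ctrb1), and results that rest on it are also given without it. CE mouse 3 was high in the neutrophil and myeloid genes Mpo (7.69), Ngp (7.41) and Camp (6.98). The acute phase gene Saa1 was high in CE 3 (4.84), BZA 4 (4.27) and CE+BZA 2 (5.30). These mice enter the spread shared by the 5 groups, and E2 against Veh was refitted without them only with the 6 mice.

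By limma, 5 of the 2545 genes (0.196%) differed between E2 and Veh by more than 2-fold with an FDR under 0.05 (p adjusted by Benjamini-Hochberg over all 2545 genes). Cyp3a44, a cytochrome P450 found mainly in female liver, and A1bg, a plasma glycoprotein gene that is also female-predominant in mice, were higher in E2 (2 genes, 0.0786%). Gsta1, a glutathione S-transferase that conjugates electrophiles, Cfd, the serine protease adipsin of the alternative complement pathway, and Stk32c, a serine/threonine kinase, were lower (3 genes, 0.118%). In RNA from whole liver, fewer cells of a type and less RNA per cell cannot be told apart. All 3 E2 mice were above all 3 Veh mice in 261 genes (10.3%) and below them in 316 (12.4%), 577 genes in all (22.7%), and each of the 5 genes was among these.

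Positions and the 250 bases before the RefSeq start site (GRCm38.p6) are given for 4 of the 5 genes, since E2 acts on genes partly through receptor binding near them. The capitals mark the estrogen response element half-site GGTCA or its reverse complement, searched on both strands.
Cyp3a44: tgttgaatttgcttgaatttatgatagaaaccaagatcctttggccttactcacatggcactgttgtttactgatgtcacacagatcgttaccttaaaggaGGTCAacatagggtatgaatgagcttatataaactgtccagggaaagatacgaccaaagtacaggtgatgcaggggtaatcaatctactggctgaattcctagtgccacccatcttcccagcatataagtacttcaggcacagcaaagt
A1bg: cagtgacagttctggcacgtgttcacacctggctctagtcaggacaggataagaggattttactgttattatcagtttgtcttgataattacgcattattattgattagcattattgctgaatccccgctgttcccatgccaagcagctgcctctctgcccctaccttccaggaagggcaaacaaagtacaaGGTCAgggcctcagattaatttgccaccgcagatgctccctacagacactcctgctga
Gsta1: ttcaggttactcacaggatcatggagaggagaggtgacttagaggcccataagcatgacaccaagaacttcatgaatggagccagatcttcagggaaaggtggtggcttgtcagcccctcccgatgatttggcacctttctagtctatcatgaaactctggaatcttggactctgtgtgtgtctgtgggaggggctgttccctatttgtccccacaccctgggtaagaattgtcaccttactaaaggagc
Cfd: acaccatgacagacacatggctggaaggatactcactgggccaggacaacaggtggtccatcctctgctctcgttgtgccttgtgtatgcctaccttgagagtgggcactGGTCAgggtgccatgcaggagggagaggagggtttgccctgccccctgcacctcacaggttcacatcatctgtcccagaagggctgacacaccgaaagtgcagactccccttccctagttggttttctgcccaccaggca
The Cyp3a44 promoter lies at chr5:145805875-145806124 on the minus strand, upstream of the gene at chr5:145773983-145805874. The A1bg promoter is at chr15:60921271-60921520 on the minus strand, within the span that GENCODE M21 gives the gene, chr15:60896859-60923012. Gsta1 is on the plus strand at chr9:78230656-78242684, with its promoter at chr9:78230419-78230668. Cfd is on the plus strand at chr10:79890853-79892655, with its promoter at chr10:79890603-79890852. Stk32c is at chr7:139103638-139213307 on the minus strand and has 2 RefSeq start sites. The half-site began 149 bases before the start in Cyp3a44, 58 in A1bg and 140 in Cfd, and Gsta1 had none. It was found 154 bases before the first Stk32c start. These letters are common, however. Of all 27025 genes with a promoter 38.4% held a half-site, as did 41.8% of the 1412 genes of the expression table that have one, 45.8% of the 96 such genes higher in E2 at an unadjusted p under 0.05 and 43.6% of the 117 lower. The full element GGTCANNNTGACC was in 0.0666% of all promoters and in 0 of the 1412 genes. The STAT5 letters TTCNNNGAA were in 8.13% of all promoters, in 7.15% of the 1412, in 5.21% of the genes higher and 9.4% of the genes lower in E2, and A1bg and Gsta1 each held 1 match.

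Cyp3a44 was −1.86, −1.75 and 0 in the Veh mice and 2.72, 3.76 and 4.62 in the E2 mice on this log2 scale. Every E2 mouse was above the 12 mice of the other groups, among which the CE mice were nearest at 1.42, 1.57 and 1.20. The difference from Veh was 4.90 (95% interval 3.53 to 6.28, FDR 0.00231 by limma), about 30.0-fold. Cyp3a44 sits in a cluster of near-identical Cyp3a genes, between which the counting may have split reads.

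A1bg was 1.48, −0.05 and 0.73 in the Veh mice and 4.03, 4.59 and 4.91 in the E2 mice. Every E2 mouse was more than 2 units above every Veh mouse. In the CE mice it was 0, 0.77 and 1.51, close to the Veh range, and in the BZA mice −2.06, −1.42 and −1.08, below every Veh mouse. The difference between E2 and Veh was 3.79 (95% interval 2.52 to 5.05, FDR 0.00754 by limma), about 13.8-fold.

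Gsta1 was 1.96, 1.33 and 2.53 in the Veh mice and −1.06, −1.05 and −1.29 in the E2 mice, the tightest of the 5 genes within E2 with an SD of 0.14. The groups did not overlap. The difference was −3.08 (95% interval −4.11 to −2.04, FDR 0.00754 by limma), about 8.44-fold lower in E2. Its close paralog Gsta2 had 1.17, 0.83 and 1.78 in Veh and −0.24, −0.31 and −0.80 in E2, a difference of −1.71 (unadjusted p = 0.00773, FDR 0.221 by limma), and reads may be shared between the paralogs.

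Cfd had the largest difference in size of all genes in this comparison. It was 4.89, 4.55 and 3.15 in the Veh mice and −1.48, −1.97 and −0.83 in the E2 mice, so the groups were separated by about 4 units. The difference was −5.62 (95% interval −7.90 to −3.35, FDR 0.0388 by limma), about 49.3-fold lower in E2. BZA mouse 3, which enters the spread shared by the 5 groups, stood at 4.59, at the level of the Veh mice, while the other BZA mice had 0.53 and −0.88. Without that mouse the SE of the difference between E2 and Veh was 0.80 in place of 1.08, and the FDR was 0.0130 by limma. BZA mouse 3 was also high in the fat cell genes Adipoq (5.52) and Plin1 (5.11), and the source of its Cfd value was not tested.

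Stk32c was 1.74, 1.77 and 0.74 in the Veh mice and −1.57, −1.57 and −0.82 in the E2 mice, of which E2 3 and E2 4 were at the floor. The difference of −2.74 (FDR 0.0388 by limma, 95% interval −3.85 to −1.63) may therefore understate the decrease. No Veh mouse was near the E2 values.

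**Figure D1:**
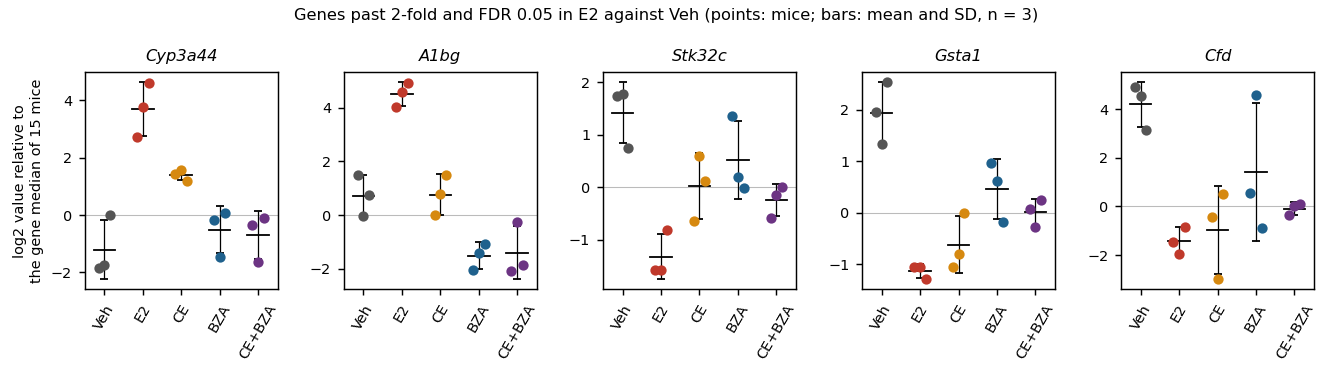
Values of the 5 genes past a 2-fold change and an FDR of 0.05 in E2 against Veh, with the log2 value relative to the gene median of 15 mice on the vertical axis and the 5 groups on the horizontal axis. Points are mice and bars are the mean and SD (n = 3); E2 and Veh mice do not overlap in any panel, and 1 BZA mouse is at the Veh level of Cfd.

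Leaving out each of the 6 E2 and Veh mice in turn kept Cyp3a44 past the threshold in 6 of 6 fits, A1bg and Gsta1 in 4 of 6, Stk32c in 1 of 6 and Cfd in 0 of 6. A1bg was lost without Veh 4 (FDR 0.0667) or E2 5 (FDR 0.0549), and Gsta1 without Veh 1 (FDR 0.0545) or E2 5 (FDR 0.0549). The differences themselves kept their sign, and ranged from −6.15 to −5.28 for Cfd and from 4.45 to 5.51 for Cyp3a44. Without BZA mouse 3, whose values enter the shared spread, 4 genes passed and Stk32c did not (FDR 0.0521).

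Genes that followed the 5 most closely across all 15 mice are given as a description, since the mice share treatments. Cyp3a44 was most like Cyp3a41a (Pearson r = 0.91), Cyp17a1, the steroid 17-alpha-hydroxylase (0.87), and Cyp2c69 (0.85). A1bg was most like Dntt, a DNA polymerase of antigen receptor assembly (0.81), Serpina12 (0.77) and Cyp3a44 (0.76). Gsta1 was most like Aldh1a1, a retinaldehyde dehydrogenase (0.89), Gsta2 (0.86) and Ptgfr, the prostaglandin F receptor (0.85). Cfd was most like Kbtbd11 (0.86), the lipid droplet protein gene Fitm1 (0.83) and Gramd1b, a sterol transfer protein gene (0.83). Stk32c was most like Ildr2 (0.90), the small nucleolar RNA Snord91a (0.80) and Gsta1 (0.80).

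At an unadjusted p under 0.05 with a fold change above 2, 166 genes (6.52%) were higher and 219 (8.61%) lower in E2, 385 in all (15.1%), and these shares are the background for the gene lists that follow. Of them, 130 of the 166 and 170 of the 219 also had no overlap between the E2 and Veh mice. In 49 of the higher and 69 of the lower genes at least 2 of the 15 mice were at the floor.

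Just outside the FDR threshold stood 3 genes with an FDR of 0.0593 by limma. Serpina12, which encodes vaspin, a serpin linked to insulin sensitivity, was −0.99, 0.44 and −0.21 in Veh and 3.00, 2.07 and 1.51 in E2, a difference of 2.45 (SE 0.50). Enho, which encodes the secreted peptide adropin, was −2.18, −3.09 and −1.56 in Veh and 0.85, 0.58 and 0 in E2, a difference of 2.75 (SE 0.58). Mogat1, a monoacylglycerol acyltransferase that makes diacylglycerol, was 2.31, 2.04 and 2.25 in Veh and −0.98, 0.34 and 0 in E2, a difference of −2.41 (SE 0.50). In all 3, no E2 mouse overlapped a Veh mouse.

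The other genes with the smallest p and no overlap between groups had an FDR of 0.0863 to 0.138 by limma and did not pass. Among those higher in E2 were Upk3b, a uroplakin of urothelium and mesothelium (2.80), the sulfotransferase Sult5a1 (2.44), and Fabp5, a fatty acid binding protein (2.59). The processed pseudogene Gm6166 (2.58) had nearly the same values as Fabp5 in every E2 mouse, 3.33, 0.73 and 2.19 against 3.32, 0.82 and 2.26, and the pair may share reads. Cdx4, a caudal homeobox gene, was −1.68, −1.68 and −0.77 in Veh with 2 mice at the floor and 0, 1.09 and 2.26 in E2. Slain1, a microtubule plus-end protein gene (2.29), Cdh1, which encodes E-cadherin (1.91), and the synaptic scaffold gene Dlgap1 (1.84) completed the 12.

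On the lower side, Cyp4a12a, a fatty acid hydroxylase found mainly in male liver, was 3.17, 0.69 and −0.19 in Veh and −2.50, −1.68 and −2.50 in E2, where 2 mice were at the floor, so its difference of −3.45 may understate the decrease. Veh mice spread over more than 3 units, and still no mouse overlapped. Cyp2b13, a female-predominant cytochrome P450, was 1.17, 0.99 and 1.30 in Veh and −0.07, −1.70 and −2.89 in E2 (−2.71). Raet1d (−2.43) and Raet1e (−2.07), ligands of the NKG2D receptor of natural killer cells, overlap each other in the annotation and so may not be separate measurements. Plin4, a lipid droplet coat protein gene, had 0.83, 0.81 and 0.54 in Veh and −1.92, −0.99 and −2.18 in E2 (−2.42). Dlec1 (−2.28), the RUN and FYVE domain gene Rufy4 (−2.66) and the small nucleolar RNA host gene Snhg11 (−2.53) were the others.

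**Figure D2:**
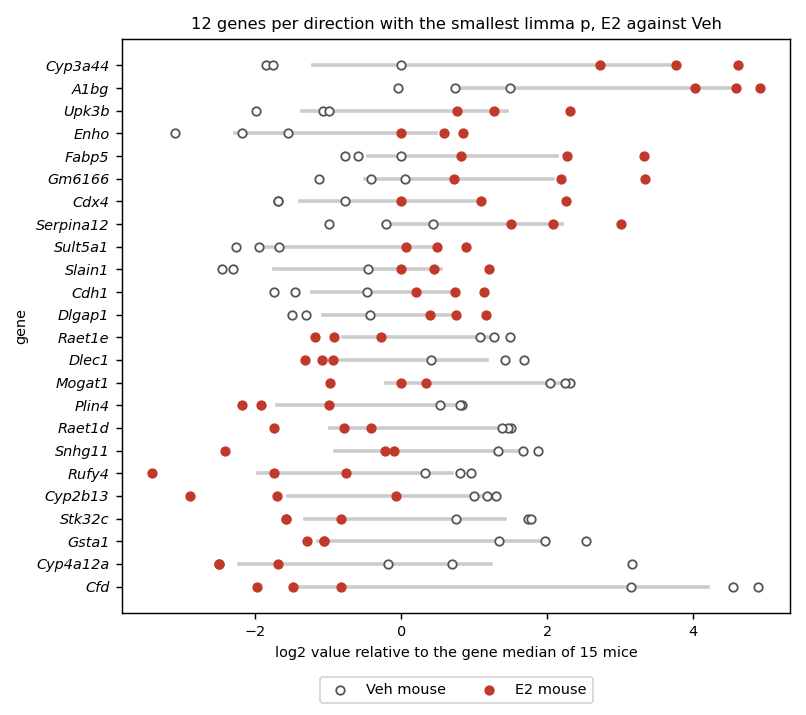
Values of the 12 genes per direction with the smallest limma p among those with a 2-fold change and no overlap between groups; the horizontal axis is the log2 value relative to the gene median of 15 mice. Open points are Veh mice, filled points E2 mice, and grey lines join the group means; the genes were chosen for not overlapping, and the widest gap is that of Cfd.

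Genes of sex-biased liver expression moved in both directions. Of 22 female-predominant genes in the table, 7 were higher and 5 lower in E2 at an unadjusted p under 0.05, with a median difference of −0.38, beside 6.52 and 8.61% and a median of 0 over all genes. The 7 higher were Cyp3a44, A1bg, Cyp3a41a (2.15), Cyp17a1 (2.11), Cyp2c69 (1.86), Cyp2a4, a steroid 15-alpha-hydroxylase (1.52), and Cux2 (2.08). Cyp17a1 was −0.89, −1.27 and 0 in Veh and 1.23, 0.87 and 2.08 in E2, with no overlap. Cyp3a41a was −1.24, −1.25 and 0.65 in Veh and 0.64, 1.94 and 2.04 in E2, so that Veh 7 was just above E2 3. In Cyp2c69, −0.65, −0.62 and 0.39 in Veh stood against 1.46, 1.66 and 1.57 in E2, with a narrow E2 group. The 5 lower were Cyp2b13, Cyp2b10 (−1.46), the fatty acid hydroxylase Cyp4a14 (−1.31) and the sulfotransferases Sult2a3 (−1.67) and Sult2a5 (−1.18). Sult2a5 was 1.15, 0.86 and 1.40 in Veh and −0.10, −0.16 and 0.13 in E2, with no overlap. The Cyp3a, Cyp2b, Cyp4a12 and Sult2a genes have close paralogs, so their values are uncertain.

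Of 17 male-predominant genes, 1 was higher and 3 were lower, with a median of 0.42 that turned to −0.32 without E2 3. Among them Mup1, Mup8, Mup12, Mup15 and Mup16 had similar values across the mice, as did Gstp1 and Gstp2. These are close paralogs that may share reads, so the median may rest on fewer separate measurements. Cyp4a12a, its neighbour Cyp4a12b and the NADPH oxidase Nox4 (−1.12) were lower. For Cyp4a12b, all 3 E2 mice were at the lowest value, against 2.75, −0.59 and 0.63 in Veh. Egfr, the epidermal growth factor receptor, was higher, from −1.99, −1.31 and −1.65 in Veh to 0.13, −0.12 and 0 in E2. The major urinary protein genes, pheromone carriers made in large amounts by male liver, gave 0 of 17 genes and pseudogenes at that threshold in either direction.

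Of 17 growth hormone and STAT5 genes, 5 were in the table. A 2-fold mean difference from Veh was present in E2 and another treatment in 3, and in another treatment only in 2. At an unadjusted p under 0.05, 3 were higher (Egfr, Socs2 and Cux2) and 0 lower, beside 6.52 and 8.61% of all genes. List medians relative to Veh were 2.21 (CE), 1.57 (E2), 1.10 (CE+BZA) and 0.58 (BZA). Positive medians were thus not limited to E2, and they are partly set by that selection. Socs2, a feedback inhibitor of growth hormone signalling and a STAT5 target, was −1.004, −0.86 and 0 in Veh and 1.46, 0.51 and 0.86 in E2 (1.57, unadjusted p = 0.0157, FDR 0.261 by limma). Cux2, a female-specific repressor of male-biased genes, was −1.93, −1.26 and −1.93 in Veh and 0.50, 0.03 and 0.59 in E2 (unadjusted p = 0.0358). All 3 E2 mice were above all 3 Veh mice in each. The inhibitor Socs3, by contrast, had overlapping values, −0.87, −0.66 and −0.57 in Veh and −1.25, 0.11 and −0.21 in E2.

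Of 24 estrogen receptor and estrogen-responsive genes, 8 were in the table. A 2-fold mean difference from Veh was present in E2 and another treatment in 3, and in another treatment only in 5. List medians relative to Veh were 1.02 (CE), 0.87 (BZA), 0.82 (E2) and 0.33 (CE+BZA), and they are partly set by that selection. At an unadjusted p under 0.05, 1 of the 8 was higher in E2 and 0 were lower, beside 6.52 and 8.61% of all genes. The 1 was Tff3, a trefoil peptide of mucosa, at −2.17, −2.17 and −1.17 in Veh and 0.93, 3.67 and −2.17 in E2. Both Veh 1 and Veh 4 and also E2 5 were at its floor, so the difference (2.65, unadjusted p = 0.0342 by limma) rested on 2 mice. Greb1, an estrogen target in breast and uterus, was at its floor in all 3 Veh mice and in E2 3 and E2 5, so its difference says nothing of a response. The trefoil gene Tff1 differed by 0.88 with overlapping mice.

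**Figure D3:**
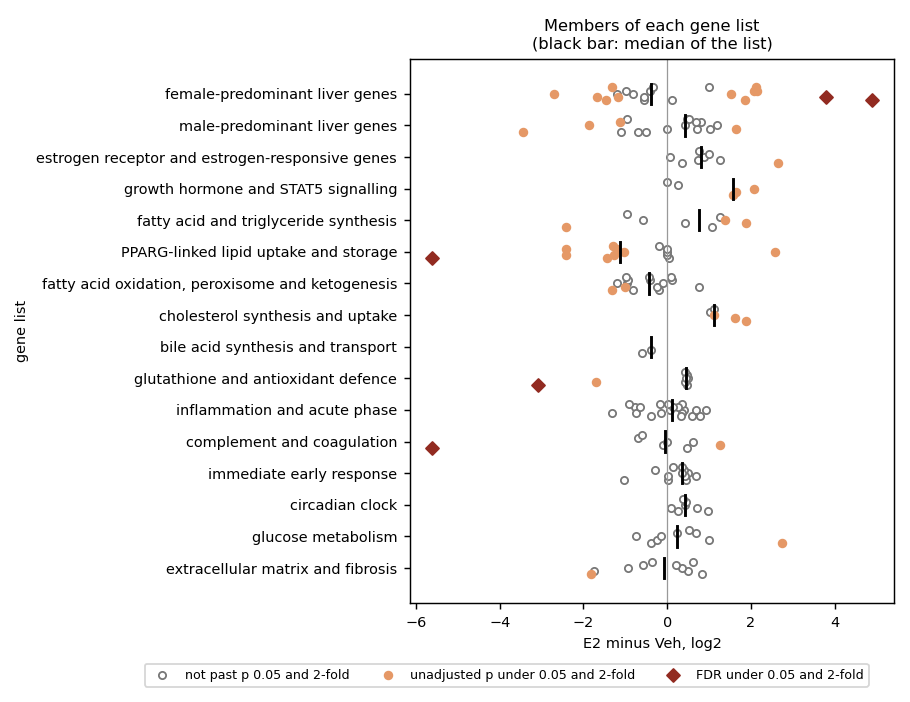
Difference between E2 and Veh (log2, horizontal axis) for the members of 16 gene lists that are in the table and reported here; each point is a gene, filled points are past a 2-fold change at an unadjusted p under 0.05, diamonds are also past an FDR of 0.05, and the black bar is the list median. The PPARG-linked genes reach from −5.62 to 2.59. Only genes with a 2-fold mean difference from Veh in some treatment are plotted. The 5 cholesterol synthesis genes and 3 of the 8 fatty acid and triglyceride synthesis genes had this difference in E2 alone. Their distance from 0 is set by that selection.

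Among PPARG-linked storage genes of the table, more were lower than higher in E2. Of the 28 on the list 14 were in the table, 9 with a 2-fold mean difference from Veh in E2 and in another treatment and 5 in another treatment only. Of these 14 genes of PPARG-linked lipid uptake and storage, 8 were lower and 1 was higher in E2 at an unadjusted p under 0.05, beside 8.61 and 6.52% of all genes, and the list median was −1.12. Pparg itself was 0.77, 0.61 and 1.18 in Veh and −0.22, −0.55 and −0.58 in E2 (−1.30, unadjusted p = 0.00890, FDR 0.228 by limma), with no overlap. Cd36, a fatty acid transporter, was 1.06, 0.55 and 1.65 in Veh and −0.57, 0 and 0.04 in E2 (−1.27). Fitm1, which partitions triglyceride into droplets, was 1.22, 1.08 and 0.89 in Veh and −0.10, −0.12 and −0.92 in E2 (−1.44). Neither gene had overlapping mice. Vldlr, a receptor for triglyceride-rich particles (−1.04), and G0s2, an inhibitor of adipose triglyceride lipase (−1.19), were lower with Cfd, Mogat1 and Plin4. G0s2 overlapped, as E2 3 at 0.57 was above Veh 7 at 0. Fabp5 was the 1 higher member, at −0.60, 0 and −0.76 in Veh and 3.32, 0.82 and 2.26 in E2.

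Cfd and Pparg are also fat cell markers. Of 12 adipocyte markers 9 were in the table, 2 of them were lower at an unadjusted p under 0.05 (Cfd and Pparg), and the mean over the 9 ranged from 0.60 to 0.74 in the Veh mice and from −0.38 to −0.16 in the E2 mice. Much of this was Cfd, since the mean over the other 8 was 0.084, 0.11 and 0.44 in Veh and −0.23, −0.18 and −0.072 in E2. Among these 8, Car3 was 1.18, 0.76 and 1.03 in Veh and 0.13, −0.34 and 0 in E2, without overlap, though it did not pass. Retn was 0, 0.17 and 0.99 in Veh and 0.10, 0 and 0 in E2, and Adrb3 also overlapped. The defining fat cell genes Plin1, Lep and Cidea were at their lowest value in all 6 mice, and Adipoq in all but E2 3 (0.10). Those genes were high in 1 mouse of another group, BZA 3, with 5.52 for Adipoq, 5.11 for Plin1 and 4.35 for Lep.

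Of 33 genes of cholesterol synthesis and uptake, 5 are in the table and reported here, and the other 28 gave no value. All 5 had a 2-fold mean difference from Veh in E2 alone (between −0.44 and 0.66 in the other treatments). That difference is what put them in the table, so their sizes (1.02 to 1.88, median 1.12) are a description of selected genes and say nothing of the pathway. By limma, 3 of the 5 passed an unadjusted p under 0.05. Mvd, mevalonate diphosphate decarboxylase, was −0.73, 0.61 and −1.66 in Veh and 1.63, 1.08 and 1.16 in E2 (1.88, 95% interval 0.66 to 3.11, unadjusted p = 0.00485, FDR 0.199 by limma). It was the 1 member of the 5 without overlap. Fdps, farnesyl diphosphate synthase, was −0.50, 0.60 and −0.59 in Veh and 2.29, 0.38 and 1.72 in E2, where E2 4 was below Veh 4. The sterol dehydrogenase gene Nsdhl (1.12) also passed. Tm7sf2 (1.02) and Pmvk (1.12) did not, at unadjusted p = 0.0523 and 0.0564 by limma. Veh 4 was the highest of the Veh mice in 4 of the 5 genes, and E2 4 was the lowest of the E2 mice in all 5.

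**Figure D4:**
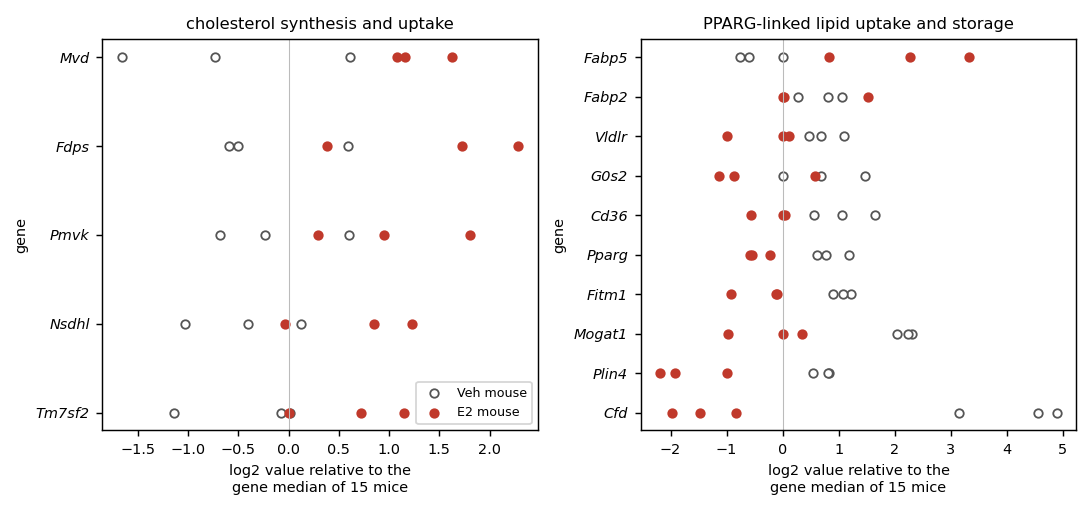
Values of the 5 cholesterol synthesis genes (left) and of 10 PPARG-linked genes (right) in each Veh mouse (open points) and E2 mouse (filled points), as the log2 value relative to the gene median of 15 mice. Adipoq, Plin1, Lep and Cidea, which were at or next to their lowest value in these 6 mice, are left out; the genes on the left were in the table for their difference in E2, and on the right E2 mice lie left of Veh mice in Cfd, Plin4, Mogat1, Fitm1, Pparg, Cd36 and Vldlr.

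Fatty acid and triglyceride synthesis gave 2 higher and 1 lower of 8 genes, with a median of 0.75. A 2-fold mean difference from Veh was present in E2 alone in 3 of the 8. It was present in E2 and another treatment in 2, and in another treatment only in 3. The median is thus partly set by that selection. Pnpla3, a lipid droplet hydrolase controlled by SREBP1C, was −2.30, 0.46 and −0.67 in Veh and 1.02, 0.76 and 1.38 in E2 (1.89, unadjusted p = 0.0208 by limma), with no overlap. Lpin1, a phosphatidate phosphatase, was −1.24, −0.38 and −1.69 in Veh and 0.32, −0.24 and 0.74 in E2 (1.38), again with no overlap. The lower gene was Mogat1, which is in both lipid lists. Fasn, fatty acid synthase, differed by 1.06 and Acly, which makes cytosolic acetyl-CoA, by 1.25, and neither passed. Pnpla3, Fasn and Acly were in the table for their difference in E2 alone, so their sizes describe selected genes.

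Of 15 fatty acid oxidation, peroxisome and ketogenesis genes, 12 had a lower mean in E2, and 2 of the 15 passed, both lower. A 2-fold mean difference from Veh was present in E2 and another treatment in 3 of the 15. In the other 12 only another treatment had it. The same Veh mice enter each of these differences, so the count of lower means is not independent of that selection. List medians relative to Veh were −1.28 (CE+BZA), −1.05 (BZA), −1.03 (CE) and −0.43 (E2). Cyp4a14, an omega-hydroxylase and PPARA target, was 1.17, 0.41 and 1.70 in Veh and −0.38, −0.02 and −0.28 in E2 (−1.31, unadjusted p = 0.0363 by limma). Ehhadh, a peroxisomal beta-oxidation enzyme, was 1.31, 0.52 and 0.80 in Veh and −0.35, 0 and −0.03 in E2 (−1.005). Both were without overlap, as were Vnn1, a pantetheinase (−0.94), Cyp4a10, Cyp4a31 and Cyp4a32 (−0.97), which did not pass. The 4 Cyp4a genes are close paralogs with similar values in every Veh mouse and may share reads, so these 6 genes may not be 6 separate measurements. Over all genes, 12.4% had all 3 E2 mice below all 3 Veh mice.

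Among the remaining lists few members passed. Glutathione and antioxidant genes gave 0 higher and 2 lower of 8, Gsta1 and Gsta2, while the other 6 had differences from 0.42 to 0.51. Complement and coagulation gave 1 higher and 1 lower of 8. F11, coagulation factor XI, was −1.11, −0.77 and −0.54 in Veh and 0.21, 0.64 and 0.50 in E2 (1.26, unadjusted p = 0.00855 by limma) with no overlap, and Cfd was the lower gene. Glucose metabolism gave Enho as the 1 higher of 9. Extracellular matrix and fibrosis gave 1 lower of 10, the macrophage elastase Mmp12, at 0.43, 1.80 and 4.60 in Veh and 0.75, 0.15 and 0.45 in E2 (−1.82). Mmp12 overlapped between groups, and Veh 7 was far above the other 5 mice.

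By limma, 0 of 20 inflammation and acute phase genes, 0 of 12 immediate early genes, 0 of 7 clock genes and 0 of 3 bile acid genes passed an unadjusted p under 0.05 with a 2-fold change. Among inflammation genes the smallest p was that of Lbp, the lipopolysaccharide binding protein (0.78, unadjusted p = 0.150), and the chemokine Ccl3 had −1.32 with overlapping mice. Dbp, a clock output factor, was −0.32, −0.84 and −0.76 in Veh and 0.39, 0.41 and 0.25 in E2, a difference just under 2-fold (0.99). Fos, an immediate early gene, had −1.04, and Cyp7a1, the rate-limiting enzyme of bile acid synthesis, −0.38, with overlapping mice in both. None of these p-values shows that E2 and Veh mice were alike in these genes. High acute phase values in CE 3, BZA 4 and CE+BZA 2 also widened the shared spread behind the p-values of such genes.

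E2 was also set against CE and against BZA directly, without the Veh mice in the contrast, while E2 against CE+BZA was not tested. Between E2 and CE, a mix of estrogens, 1 gene passed (A1bg, 0.0393%), and 231 (9.08%) passed an unadjusted p under 0.05. A1bg was higher in E2 by 3.75 (95% interval 2.48 to 5.01, FDR 0.0241 by limma), with no overlap. This call was lost (0 genes) without E2 3, E2 5, CE 3, CE 6 or BZA 3, with only the 6 mice, with a mean-variance trend and with an ordinary linear model. Cyp3a44 was higher in E2 than in CE by 2.30 (95% interval 0.93 to 3.68), and every E2 mouse was above every CE mouse, but its FDR was 0.387. For Gsta1, Cfd and Mogat1 the differences between E2 and CE were −0.52 (95% interval −1.55 to 0.51), −0.46 (−2.74 to 1.82) and 0.35 (−0.71 to 1.41), intervals that hold 0 and also differences of 2-fold. The doses of E2 and CE differed and were not matched. E2 was delivered by pellet and CE by osmotic minipump, so estrogen, dose and delivery cannot be told apart here.

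Between E2 and BZA, 7 genes passed (0.275%), all higher in E2, and 282 (11.1%) passed an unadjusted p under 0.05. The 7 became 2 without BZA 3, 2 without E2 5, 4 without E2 3 and 17 without BZA 4, and 3 with only the 6 mice or 2 with an ordinary linear model. A1bg differed by 6.03 (95% interval 4.76 to 7.30), Cyp3a44 by 4.22 (2.85 to 5.60), Serpina12 by 3.51 (2.44 to 4.57) and Fabp5 by 3.33 (2.01 to 4.65), with an FDR of at most 0.0257 by limma. Serpina12 was −1.09, −1.72 and −1.12 in the BZA mice and 1.27, 0.93 and 1.08 in the CE mice, so the order of its group means from low to high was BZA, Veh, CE+BZA, CE and E2, with Veh (−0.26) and CE+BZA (−0.13) close together. Another 2 names, Cml3 (3.67) and Gm4477 (3.86), had no position in the annotation used. Cml3 was −0.03, 1.57 and 0 in Veh and 1.77, 1.90 and 2.02 in E2. Gm4477 ran in parallel, at 0, 2.11 and 0.15 in Veh and 2.27, 2.66 and 2.95 in E2. In the BZA mice they were less alike, −0.94, −1.23 and −3.16 against −1.22, −0.14 and −2.35. The pair may share reads and so may not be 2 separate measurements. The antisense gene Gm11175 (6.74) was at its lowest value in all 3 BZA mice, and between E2 and Veh its difference was 0.37 (95% interval −2.20 to 2.93).

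**Figure D5:**
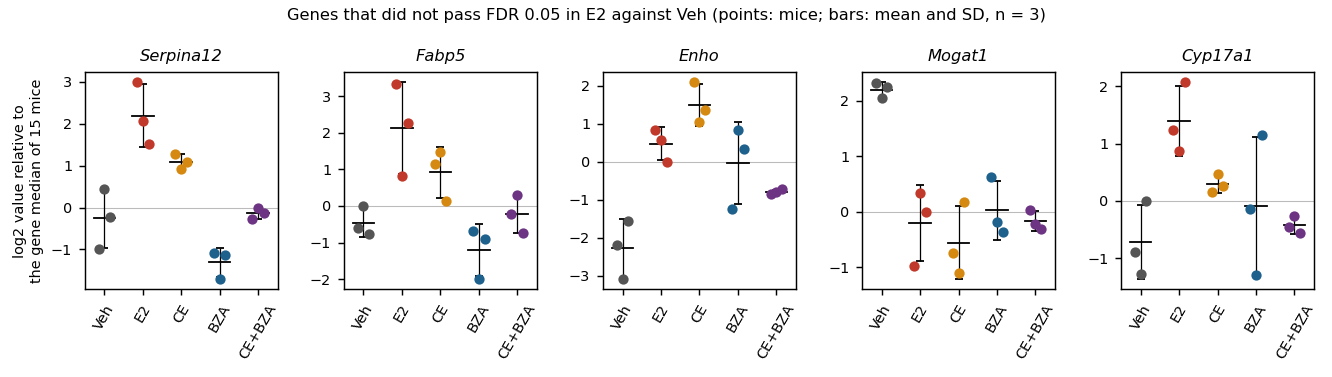
Values of Serpina12, Fabp5, Enho, Mogat1 and Cyp17a1 in the 5 groups, as the log2 value relative to the gene median of 15 mice; points are mice and bars are the mean and SD (n = 3). None passed an FDR of 0.05 in E2 against Veh, E2 and Veh mice do not overlap in any panel, and Serpina12 and Fabp5 passed in E2 against BZA.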

How the data were processed

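Liver RNA of the 15 mice was sequenced from poly-A selected, stranded libraries. According to the study's methods, reads were trimmed, mapped with TopHat and counted per gene in StrandNGS (unannotated genes and partial reads were kept), and the submitters' processing notes name CASAVA 1.8.2, TopHat2 0.5, DESeq and the builds mm10 and hg19. The sources differ on single-end or paired-end reads and on the number of mice sequenced per group, and the table holds 3 per group. The authors deposited log2 DESeq-normalized values, each relative to the median of the gene over the 15 mice, with low values raised to a floor. The filter that left 2545 genes is not given in the sources used here. No value column was left without a sample (0), and among the 105 pairs of mice 0 were identical.

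The values were used as deposited. All 15 mice entered 1 model with 5 groups, fitted by limma 3.58.1 (R 4.3.3; functions lmFit and eBayes), with the contrasts E2 minus Veh, E2 minus CE and E2 minus BZA and Benjamini-Hochberg adjustment over 2545 genes. The script was tested on simulated data first. The threshold was a fold change above 2 with an FDR under 0.05, and a looser threshold used an unadjusted p under 0.05 as in the study's plots. Since the mice are separate animals, p-values cover the spread between animals. Gene lists (16) and cell marker lists (12) were described by counts and medians, with no test of a list. The members, the lists and the rule for named genes were chosen with earlier results of these data known. The rule named every gene that passed, 12 genes per direction with the smallest p and no overlap, up to 4 genes per list with the smallest p, the genes the study names from liver RNA, and the 3 most correlated genes of each passing gene. All other genes in the text were named after their values were seen. A few genes of the lists or chosen by the rule are not reported here. The motifs were also chosen after the values were seen. Promoters came from RefSeq (GRCm38.p6), with positions and gene types from GENCODE M21 (GRCm38) by symbol for 2166 and 2168 of the rows. Plots were drawn with matplotlib 3.10.9 in Python 3.11.15. Replicate numbers in the labels pair no mice of E2 and Veh, which share the number 4 alone.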

Additional observations from a re-analysis of the deposited data

How the results depend on the processing

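Of the 5 genes in E2 against Veh, 5 were left with each mouse centred on its median, with a mean-variance trend or with no fold change threshold. Quantile normalization gave 10 genes, among them the 5, and leaving out the genes in which 2 or more mice were at the floor gave 18, of which 4 were shared because Stk32c was no longer tested. An ordinary linear model gave 9, of which 4 were shared. With only the 6 mice of both groups, 0 genes passed, since each of the 5 then had an FDR of 0.103, while 375 were past an unadjusted p under 0.05 (155 higher and 220 lower). With the number in the mouse descriptions as a replicate block, 0 passed in E2 against Veh and 217 genes were past the unadjusted threshold in place of 385. E2 and Veh share the number 4 alone, and the deviations of these mice from their group means had a correlation of −0.021, so the number marks no pair. In the block fit the median difference of all genes was −0.15 in place of 0. Leaving out each of the 6 E2 and Veh mice gave 1 to 5 genes at the FDR threshold and 278 to 375 at the unadjusted one. For E2 against CE, 0 genes passed with only 6 mice, with a trend, with the ordinary model and with the block, and 0 to 1 without single mice. For E2 against BZA, 14 passed with quantile normalization, 13 without floor genes, 3 with only 6 mice, 12 with a trend, 2 with the ordinary model, 1 with the block and 2 to 17 without single mice. Leaving out BZA mouse 3, chosen after the data were seen, left 4, 420 and 0 genes for E2 against Veh at both thresholds and for E2 against CE, and 2 for E2 against BZA. A few small differences turned, none of which had passed. In the block fit, Socs3 was −0.39, Cyp7a1 0.12, C3 −0.14, Adipoq −0.46 and Fabp2 0.41. Leaving out single E2 or Veh mice, Socs3 ranged from −0.030 (without E2 4) to 0.65, Per1 from −0.21 (without E2 4) to 0.97, Nr1d1 from −0.0037 (without E2 5) to 1.42, Gm11175 from −0.17 (without Veh 7) to 0.67 and Fabp2 from −0.70 to 0.060 (without E2 5) and 0.046 (without E2 4). The cause of these changes was not tested. Medians of the PPARG-linked, growth hormone and fatty acid lists kept their sign in all alternatives run. Their members were in the table for a 2-fold difference from the same Veh mice, so a kept sign is no independent support. The male-predominant median turned without E2 3. In the block fit 17 list medians moved by more than the SD of the list medians of the E2 mice, and 10 did not. The table gives no read depth, so the reads behind a value, and the genes left out before deposition, limit what can be said.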

Other observations

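Some genes outside the lists also separated E2 from Veh. Cga, which encodes the alpha subunit shared by the pituitary glycoprotein hormones, was at its lowest value in all 3 Veh mice and at 1.45, 2.00 and 2.03 in the E2 mice (unadjusted p = 0.00231, FDR 0.144 by limma). In the CE mice it was 0, 1.75 and 0 and in the BZA mice 0, 0.77 and 0. Krt23, an acidic keratin gene, was 3.19, 2.53 and 3.70 in Veh and 0.75, −0.38 and −0.50 in E2, and Aqp4, a water channel gene, was 1.69, 1.42 and 2.22 in Veh and 0.14, −0.24 and −0.68 in E2. The groups did not overlap in either, with an FDR of 0.131 for both by limma. Ltc4s, the leukotriene C4 synthase, was −1.48, −2.52 and 0.04 in Veh and 1.23, 0.24 and 0.70 in E2 (2.04, FDR 0.144 by limma), also without overlap.

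Of 30 cytochrome P450 genes in the table, 7 were higher and 9 lower in E2 at an unadjusted p under 0.05 with a 2-fold change, beside 6.52 and 8.61% of all genes. Cyp2g1 was higher (1.56), and Cyp3a11, the main drug-metabolizing Cyp3a enzyme of mouse liver, was lower, from 0.44, 0.36 and 1.24 in Veh to −0.63, −0.13 and −1.62 in E2, so that genes of 1 cluster with close paralogs were found on both sides. Of 8 sulfotransferases, 2 were higher (Sult5a1 and Sult4a1) and 2 lower (Sult2a3 and Sult2a5). Sult4a1 was −1.32, −0.14 and −1.32 in Veh with 2 mice at the floor and 2.82, −1.12 and 1.68 in E2. Of 58 solute carrier genes, 1 was higher, the organic anion transporter Slc22a7 (1.41), and 5 were lower, among them the nucleoside transporter Slc28a1 (−1.89), Slc35f2 (−1.78) and Slc22a29 (−1.29).

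Among 128 antisense genes 2 were higher and 17 lower in E2 at the same threshold. Among 53 lincRNAs 0 were higher and 8 lower, and among 1728 protein-coding genes 129 were higher and 149 lower. Over all genes 6.52% were higher and 8.61% lower. Median differences from Veh of the antisense genes were −0.71 (BZA), −0.36 (CE+BZA), −0.35 (E2) and −0.32 (CE). Those of the lincRNAs were −0.57, −0.21, −0.19 and −0.39 in that order, so negative medians were not limited to E2. Differences between treatments in these gene types were not tested. Gm15622 had the smallest p of the antisense genes (−3.00) and Gm17705 of the lincRNAs (−2.15). At least 2 mice were at the floor in 66 of the antisense genes and 29 of the lincRNAs, and the part of the floor in these counts was not tested. Whether the counting used strand is not given in the sources used here, so reads of an antisense gene and its partner may not be separate.

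Of the 12 cell marker lists, 9 had no member past an unadjusted p under 0.05 with a 2-fold change by limma, and 1 of these, the endothelial list, had no member in the table. Besides Cfd and Pparg of the adipocyte list, the erythroid heme synthesis gene Alas2 (−1.26) and the mitotic gene Cenpf (−1.54) were lower. Most members of these 2 lists did not pass. The mean was higher in E2 in 7 of 9 erythroid genes (median 0.68) and 4 of 6 cell division genes (median 0.34), beside 1237 of all 2545. In 6 of the 9 and 3 of the 6, only another treatment had a 2-fold mean difference from Veh. Erythroid medians relative to Veh were 1.59 (CE), 1.55 (BZA) and 0 (CE+BZA), and cell division medians 1.25, 0.18 and 0.015. The same Veh mice enter each, so these counts are not independent of that selection. Hba-a1 and Hba-a2 had nearly the same values in every mouse, as did Hbb-b1 and Hbb-b2, and may share reads.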
